A study of Oryza sativa with 20 samples.

Results

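Genes of DNA replication and of histone H2B were followed in rice stem bases after induction of CRL1, a transcription factor required for crown root formation. A gene was taken where its symbol or synonym, with or without a leading Os, began with MCM, RFC, RPA, PCNA, ORC, CDC6, CDC45, POLA, POLD, RNR, H2A or H2B, or named histone H3 or H4. This found 37 genes, of which 4 were dropped because the letters belong to another kind of gene: the homeobox genes OSH3, OSH43 and OSH45 and the flowering gene rFCA. The remaining 33 genes are 33 of the 17905 genes that the annotation pairs alone with a probe set. By name, 13 of them were grouped as origin licensing and helicase (MCM2 to MCM9 and ORC1 to ORC5). The replicative helicase itself is MCM2 to MCM7, and MCM8 and MCM9 are in this group by name alone. Another 8 belong to the polymerase, clamp and clamp loader (PCNA, POLD1, POLD2 and RFC1 to RFC5). A further 7 encode single-strand binding proteins (RPA14, RPA32A, RPA32B, RPA32C, RPA70A, RPA70B and RPA70C) and 5 encode histone H2B (H2B.5, H2B.6, H2B.7, H2B.10 and H2B.11). None of the 33 genes has an H2A, H3, H4, RNR, CDC6, CDC45 or POLA name. All but MCM8 passed the filter on dim probe sets, so 32 genes were tested. MCM8, known for a role in recombination repair, stayed between 0.1 and 5.1 signal units on the 20 arrays.

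All plants carried the crl1 mutation in the cultivar Taichung 65 and make few or no crown roots. In 3 transgenic lines, called the CRL1 lines here, dexamethasone, a synthetic glucocorticoid, switches on an intact CRL1 transgene. These lines were homozygous for an insertion at 1 locus and had been picked for CRL1 induction on northern blots and for crown roots 48 h after dexamethasone. The 2 control lines were crl1 without the transgene, control line 1 untransformed and control line 2 with the empty vector pINDEX2. Each line was treated at 8 days of age with 10 µM dexamethasone (dex) or with ethanol at 0.5‰ (mock) and sampled at 4 h and at 8 h, with RNA of 20 stem bases pooled on 1 array. Each group of the CRL1 lines therefore holds 3 arrays and each control group 2, and all 4 arrays of a line share its genotype.

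Before a chromosome is copied, the origin recognition complex (ORC) marks origins and loads the ring-shaped MCM2 to MCM7 helicase. Replication protein A (RPA) then coats the unwound strand, and the clamp loader, replication factor C (RFC), places the sliding clamp PCNA that holds DNA polymerase delta on its template. Histone H2B is needed to package the new DNA, and transcripts of many of these genes are known to peak around S phase. Crown roots of rice arise by new cell divisions at the stem base.

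The values are MAS5 signals, brightness values per probe set on a linear scale that the authors had scaled to a common level, so they are set side by side only for the same gene. Array medians ran from 10.1 to 15.5. No probe set was matched to CRL1, so its induction was not checked directly. Of 5 quiescent centre and crown root markers, the homeobox gene QHB rose by 3.52 ± 0.45 (SE) on the log2 scale in the CRL1 lines at 8 h (adjusted p = 0.000166), while the other 4 were below 0 and the median was -0.65. On average, each array of control line 1 correlated with the arrays of other lines at 0.914 to 0.941, and the dex array of CRL1 line 2 at 8 h at 0.922, against 0.941 to 0.956 for the others. Some results are therefore also given without these lines. In the stem bases, the summed signal of 13 genes listed as shoot meristem markers lay between 1593 and 4305. OSH1 and OSH71 had the highest mean signals of the 13, and OSH43 was as low as 8.8 (CRL1 line 3, 8 h, mock). The list was matched by name and includes LOG-like (LOGL) genes. In such bulk tissue, fewer cells of a type and less RNA per cell cannot be told apart.

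At 8 h of CRL1 induction 5 of the 32 genes rose and none fell: the clamp loader genes RFC1 and RFC4, the helicase gene MCM5, the RPA gene RPA14 and the origin recognition gene ORC3. Over all probe sets tested, 3.47% were called higher and 2.91% lower in the same comparison. The median log2 change over the 32 genes was 0.34, against -0.04 over all probe sets, and 30 of 32 were above 0, against 45.0% of all probe sets. At an unadjusted p under 0.05, 11 of 32 were higher and none lower, against 8.16% higher and 10.0% lower over all probe sets. With line as a block 7 genes were called higher, by the addition of MCM3 and RFC5, where 5.29% of all probe sets were.

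RFC1 (LOC4350754), the large subunit of the replicative clamp loader, changed most evenly across lines. In CRL1 lines 1, 2 and 3 its signal at 8 h was 238.9, 259.1 and 237.2 after mock and 547.9, 780.4 and 602.2 after dex. Every dex array lay above every mock array by a wide margin. In control lines 1 and 2 it was 241.3 and 253.4 after mock and 305.8 and 259.9 after dex. Group means in the CRL1 lines were 245 ± 12.2 and 644 ± 122 (SD, n = 3), and RFC1 rose by 1.37 ± 0.14 (SE) on the log2 scale (adjusted p = 2.8e-05, limma). At 4 h its signal was 233.2, 265.5 and 253.8 after mock and 376.0, 403.1 and 293.2 after dex, again without overlap. The change at 4 h was 0.50 ± 0.14 and did not pass the test (adjusted p = 0.227). At that time the control lines stood at 262.2 and 249.7 after mock and at 261.1 and 244.8 after dex.

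The other clamp loader subunits did not move alike. RFC4 (LOC4336704), a small subunit, had signals of 305.2, 259.6 and 329.8 after mock and 858.0, 1364.4 and 370.6 after dex in CRL1 lines 1, 2 and 3 at 8 h. The groups did not overlap, but line 3 differed little between treatments: its log2 change was 0.17, against 1.49 in line 1 and 2.39 in line 2. RFC4 rose by 1.35 ± 0.32 (adjusted p = 0.0197), while control lines 1 and 2 stood at 325.3 and 253.3 after mock and at 328.3 and 278.5 after dex. RFC5 (LOC4334389), another small subunit, went from 213.2, 157.3 and 217.8 to 292.8, 342.0 and 236.6. These groups were also apart, by a narrow gap, and the log2 change was 0.56 ± 0.17 (adjusted p = 0.0600, and 0.0300 with line as a block). In the control lines RFC5 was at 165.1 and 203.4 after mock and at 181.2 and 203.2 after dex. RFC3 and RFC2, the remaining small subunits, had log2 changes of 0.35 and 0.02. For RFC2 the 95% interval ran from -0.32 to 0.36, so changes beyond those sizes lie outside it.

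PCNA (LOC4331062), the clamp that this complex loads and the brightest gene of its group, had signals of 935.2, 819.3 and 678.8 after mock and 1024.2, 1521.8 and 837.5 after dex in CRL1 lines 1, 2 and 3 at 8 h. The groups overlapped, although each line was higher after dex than after mock. Its log2 change was 0.44 ± 0.22 (adjusted p = 0.318). Control lines 1 and 2 went from 500.2 and 679.4 to 653.0 and 553.6, higher in the first and lower in the second. POLD1, the catalytic subunit of DNA polymerase delta, had a log2 change of 0.49 and POLD2, an accessory subunit, one of 0.22, and neither passed the test.

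**Figure D1:**
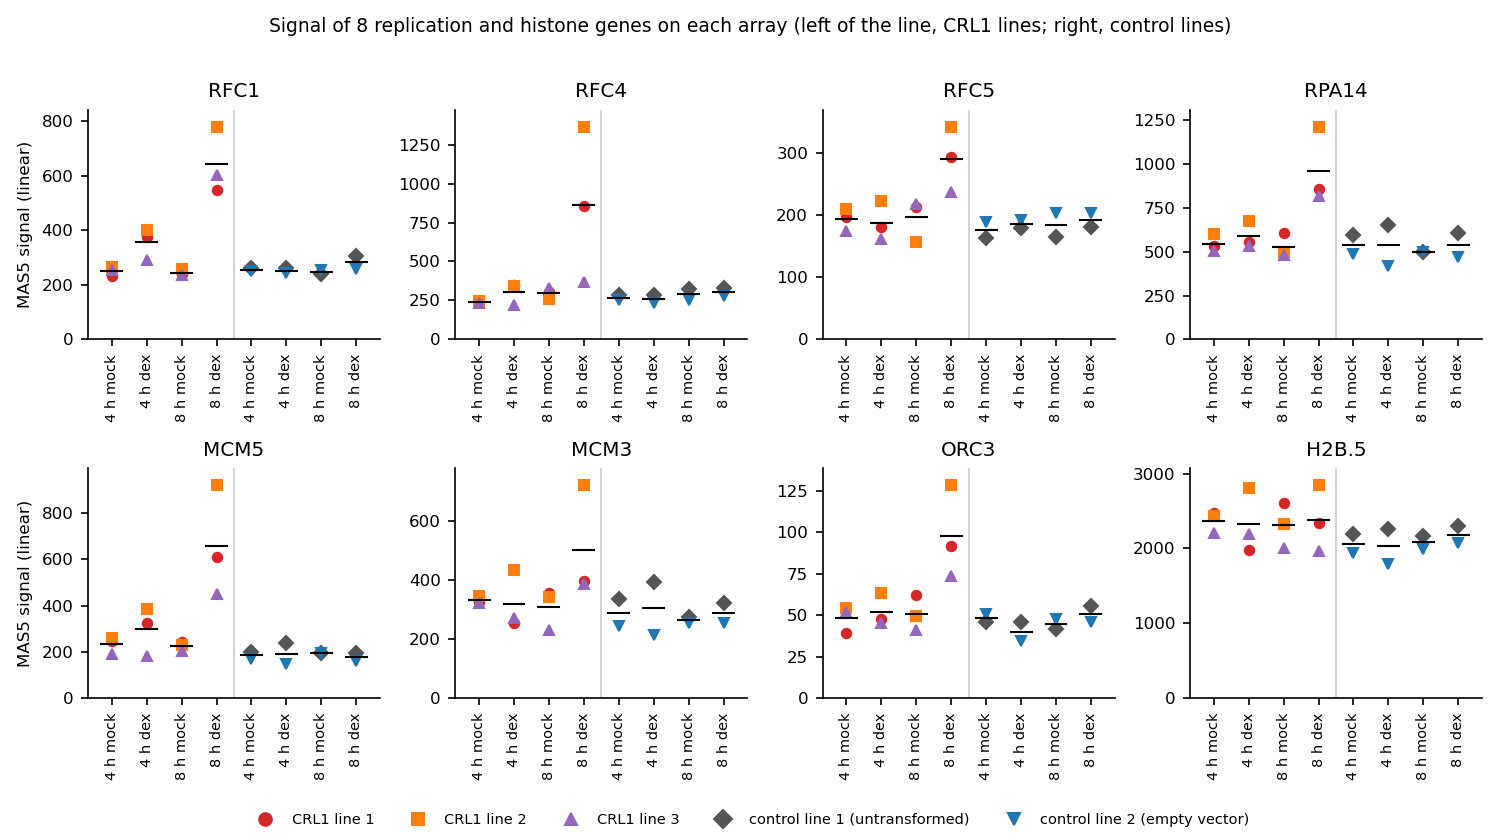
Linear MAS5 signal of 8 genes on each of the 20 arrays, by kind of line, time and treatment, with points for lines and a bar for the group mean. At 8 h the 3 dex arrays of the CRL1 lines lie above the 3 mock arrays for RFC1, RFC4, RFC5, RPA14, MCM5, MCM3 and ORC3, but not for H2B.5.

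Within the helicase ring, MCM5 stood above its partners. MCM5 (LOC4331016) had signals of 241.2, 227.8 and 204.9 after mock and 608.4, 920.4 and 451.2 after dex in CRL1 lines 1, 2 and 3 at 8 h. The groups were far apart, while control lines 1 and 2 went from 195.9 and 197.1 to 195.1 and 158.7. Means in the CRL1 lines were 225 ± 18.4 and 660.0 ± 239 (SD, n = 3), and the gene rose by 1.49 ± 0.27 (adjusted p = 0.0032). Its log2 changes in the lines were 1.33, 2.01 and 1.13. In each CRL1 line this was the highest change of the 6 ring subunits. The other 5 lay between -0.32 and 0.16 in line 1, between 0.84 and 1.16 in line 2 and between 0.14 and 0.74 in line 3. These differences between subunits are described and were not tested.

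MCM3 (LOC4339099) was the next of the ring subunits. Its signal was 355.8, 343.3 and 229.7 after mock and 397.8, 721.0 and 386.0 after dex in CRL1 lines 1, 2 and 3 at 8 h. The groups were just apart, with a log2 change of 0.66 ± 0.28 (adjusted p = 0.210, and 0.0346 with line as a block). In the control lines MCM3 went from 275.5 and 253.9 to 322.5 and 254.2. MCM2 (LOC4350526), the brightest helicase gene, went from 600.3, 517.8 and 385.5 to 482.0, 926.3 and 510.0. It was lower after dex in line 1 and higher in the other lines, with overlapping groups and a log2 change of 0.31 ± 0.28 (adjusted p = 0.650). In the control lines MCM2 went from 342.2 and 421.6 to 476.2 and 373.9. MCM4, MCM6 and MCM7 had log2 changes of 0.51, 0.42 and 0.37, none of which passed the test. MCM9, known with MCM8 for recombination repair in animals, had 0.46 on its brightest probe set and 0.08 and 1.30 on its other probe sets, none of them called. The probe set with 1.30 was dim, with a mean signal of 5.68, and its SE was 0.70.

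Of the origin recognition genes only ORC3 was called. ORC3 (LOC4348571) had signals of 62.2, 49.8 and 40.9 after mock and 91.8, 128.4 and 73.5 after dex in CRL1 lines 1, 2 and 3 at 8 h. The groups did not overlap, and control lines 1 and 2 went from 42.0 and 47.5 to 55.3 and 46.0. ORC3 rose by 0.90 ± 0.22 (adjusted p = 0.0223). ORC5, ORC4, ORC1 and ORC2 had log2 changes of 0.69, 0.37, 0.27 and 0.09. ORC5 and ORC4 also had every dex array above every mock array, though for ORC5 the change was 1.68 in line 2 against 0.24 and 0.16 in lines 1 and 3. The locus named ORC5 also carries OsORC1 among its synonyms, so its identity is less certain than that of the others.

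RPA14 (LOC4327706), the small subunit of RPA, rose by 0.84 ± 0.18 at 8 h (adjusted p = 0.0106). Its signal was 608.2, 499.8 and 478.1 after mock and 854.2, 1210.1 and 814.6 after dex in CRL1 lines 1, 2 and 3. The groups did not overlap, and control lines 1 and 2 went from 497.0 and 497.1 to 604.1 and 469.8. The partner subunits are each encoded by several rice genes, and none of these was called. The middle subunit genes RPA32A, RPA32B and RPA32C had log2 changes of 0.32, 0.32 and 0.14. The large subunit genes RPA70A, RPA70B and RPA70C had 0.27, -0.10 and 0.02.

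None of the 5 H2B genes was called. H2B.5 (LOC4324504), the brightest of them, had signals of 2604.4, 2321.3 and 2010.4 after mock and 2339.6, 2841.7 and 1968.2 after dex in CRL1 lines 1, 2 and 3 at 8 h. The groups overlapped throughout, with a log2 change of 0.04 ± 0.16 (adjusted p = 0.952) and a 95% interval from -0.29 to 0.37. Control lines 1 and 2 went from 2167.1 and 1991.7 to 2293.0 and 2072.0. H2B.7, H2B.6, H2B.10 and H2B.11 had log2 changes of 0.27, 0.12, 0.01 and -0.12. For H2B.11 the 95% interval ran from -0.40 to 0.16. H2B.5, H2B.6, H2B.7 and H2B.10 lie close together in the genome, with 1 gene between H2B.5 and H2B.6 and 10 between H2B.5 and H2B.10 in the RefSeq table. By its name, the H2B.7 probe set has some probes that match other transcripts, while the probe sets of the other H2B genes are named as unique. Sequences were not compared here. The probe sets may still share transcripts, so the H2B genes are not taken as independent measurements.

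By role, the median log2 change in the CRL1 lines at 8 h was 0.44 over 12 licensing and helicase genes, including MCM9 by name. It was 0.47 over 8 polymerase, clamp and loader genes, 0.27 over 7 RPA genes and 0.04 over 5 H2B genes. Called genes numbered 2, 2, 1 and 0, where 3.47% of all probe sets were called higher. All 12 and all 8 genes of the first groups were above 0, with 6 of 7 RPA genes and 4 of 5 H2B genes. Of all probe sets 45.0% were above 0. Each role holds few genes, and differences between roles were not tested.

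The lines differed strongly among themselves. At 8 h the median log2 change over the 32 genes was -0.02 in CRL1 line 1, 0.81 in line 2 and 0.24 in line 3, with 15, 32 and 24 genes above 0. CRL1 line 2 gave the highest change of the 3 lines for 29 of 32 genes. At 4 h it did so for 23 of 32. How often line 2 was highest over all probe sets was not counted. Shares of all probe sets above 0 in single CRL1 lines were not counted either. At 8 h the H2B genes ranked the CRL1 lines in the same order as all 32 genes did. Their median was -0.23 in line 1, 0.35 in line 2 and -0.03 in line 3. The licensing and helicase genes and the polymerase, clamp and loader genes also kept this order. The RPA genes did not, with medians of 0.003, 0.56 and -0.11. In control lines 1 and 2 the medians over the 32 genes at 8 h were 0.24 and 0.00, so control line 1 reached the median of CRL1 line 3. Above 0 were 28 and 16 genes, against 49.3% and 57.6% of all probe sets. The medians of the 3 CRL1 lines had an SD of 0.42, larger than the median change of 0.34 from the fit. RFC1 and MCM5, in contrast, were higher by more than 1 in each CRL1 line and by at most 0.34 in each control line.

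**Figure D2:**
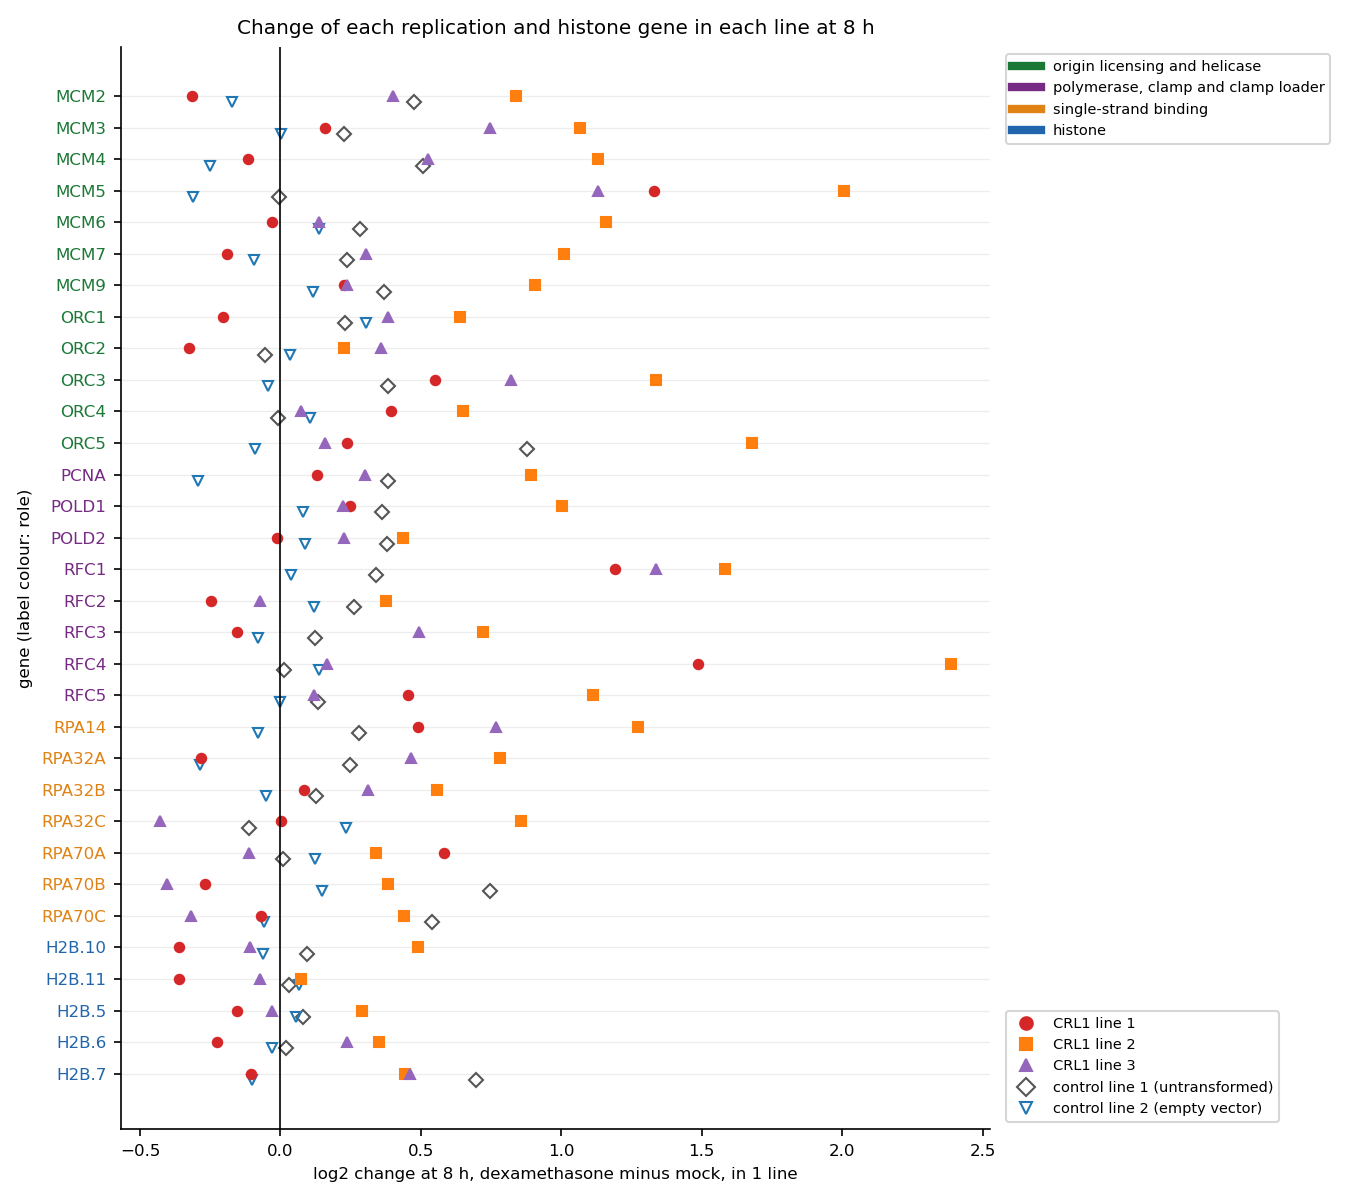
Log2 change at 8 h, dex minus mock, of each of the 32 tested genes in each line, with filled points for the 3 CRL1 lines and open points for the 2 control lines. CRL1 line 2 lies farthest right of the CRL1 lines for 29 genes, and only RFC1 and MCM5 have all 3 CRL1 lines beyond 1.

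Across the 32 genes, the change at 8 h in CRL1 line 1 correlated with that in line 2 at Pearson r = 0.79 (Spearman rho = 0.65). Lines 1 and 3 gave r = 0.48 (rho = 0.21) and lines 2 and 3 r = 0.52 (rho = 0.48). At 4 h the same pairs gave r between 0.19 and 0.41, and the control lines at 8 h gave r = -0.22. These are descriptions over genes, which are not independent replicates and include H2B genes whose probe sets may share transcripts. Each line's change comes from its own pair of arrays. At 8 h 13 of 32 genes were higher after dex in every CRL1 line, against 18.0% of all probe sets. For 10 of 32 every dex array lay above every mock array, against 10.6% of all probe sets: MCM3, MCM5, ORC3, ORC4, ORC5, RFC1, RFC4, RFC5, RPA14 and RPA32B. In the control lines 13 of 32 were higher in both lines at 8 h, where 29.0% of all probe sets were. For 7 of 32 both dex arrays of the controls lay above both mock arrays, against 12.2% of all probe sets.

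Without CRL1 line 1 or without line 2, RFC1 alone remained called at 8 h, and without line 3 the calls were RFC1, MCM5 and RFC4, each time with fewer arrays. Without line 2 the adjusted p was 0.0700 for MCM5, 0.356 for RFC4, 0.220 for RPA14 and 0.285 for ORC3. The median over the 32 genes was then 0.17, with 25 above 0, against 45.7% of all probe sets. The log2 change of RFC4 was then 0.83 instead of 1.35.

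At 4 h of induction none of the 32 genes was called, where 0.414% of all probe sets were called higher and 0.0213% lower. At an unadjusted p under 0.05, 2 genes were higher, RFC1 and ORC2, and none lower, against 3.46% and 2.70% of all probe sets. The median log2 change was -0.03, against -0.02 over all probe sets, and 14 of 32 were above 0, against 46.4% of all probe sets. ORC2 had 0.51 (adjusted p = 0.667), with signals of 83.3, 105.9 and 107.0 after mock and 175.0, 120.8 and 131.4 after dex in CRL1 lines 1, 2 and 3. No mock array reached the lowest dex array, and at 8 h the change of ORC2 was 0.09. MCM5 had 0.30 and RFC4 0.31 at 4 h, with line 3 at or under its mock value for both: 183.8 after dex against 189.5 for MCM5, and 218.2 against 234.4 for RFC4. At 4 h 5 of 32 genes were higher in every CRL1 line, against 14.4% of all probe sets.

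**Figure D3:**
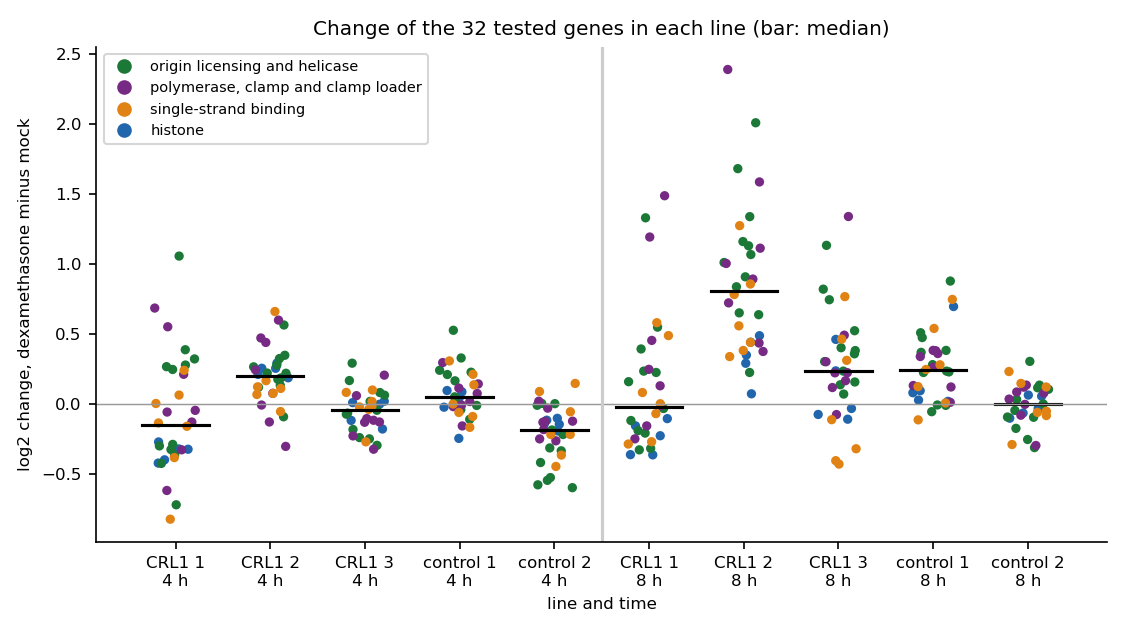
Log2 change, dex minus mock, of the 32 tested genes in each of the 5 lines at 4 h and at 8 h, coloured by role, with a bar for the median. The medians at 8 h are -0.02, 0.81 and 0.24 in CRL1 lines 1, 2 and 3 and 0.24 and 0.00 in control lines 1 and 2.

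The response at 8 h minus that at 4 h had a median of 0.37 over the 32 genes, against -0.03 over all probe sets. Above 0 were 30 of 32 genes, against 46.2% of all probe sets. Without CRL1 line 2 the median was 0.24, with 27 genes above 0, against 48.1% of all probe sets. No gene was called in this difference, where 0.00609% of all probe sets were. At an unadjusted p under 0.05, 7 were higher and none lower, against 2.80% and 2.74% of all probe sets. RFC1 had 0.87 ± 0.20 (adjusted p = 0.216) and MCM5 1.19 ± 0.39 (adjusted p = 0.579). A call at 8 h and none at 4 h is therefore not shown to be a difference between the times for any single gene.

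**Figure D4:**
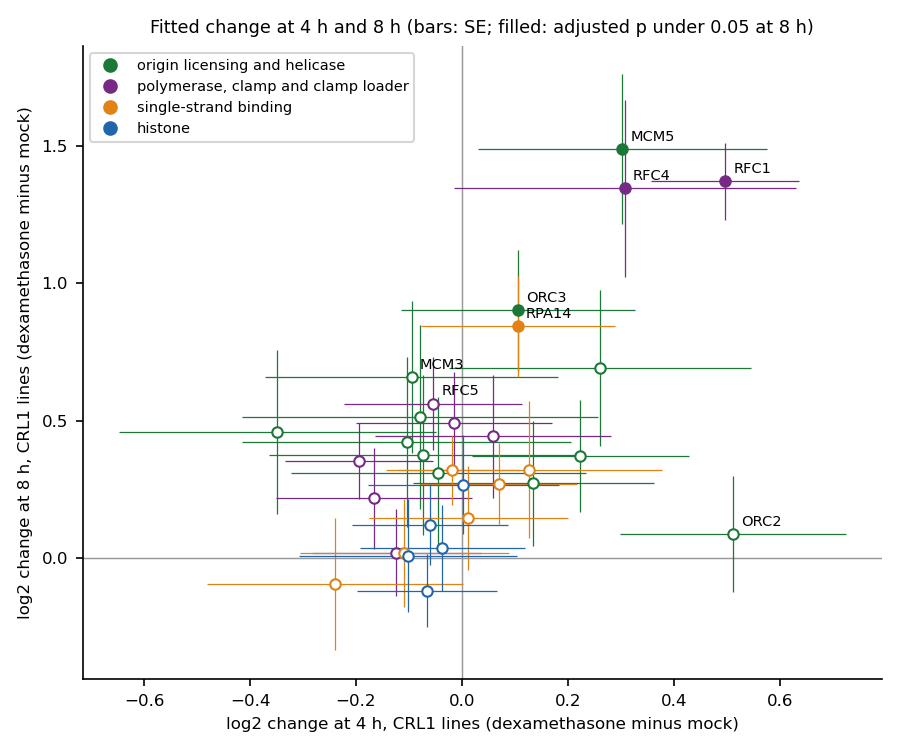
Fitted log2 change in the CRL1 lines at 4 h (horizontal) and at 8 h (vertical) for the 32 tested genes, with standard errors as bars and filled points for the 5 genes called at 8 h. RFC1, MCM5 and RFC4 lie highest at 8 h, at 1.37, 1.49 and 1.35, and ORC2 lies apart at 0.51 at 4 h and 0.09 at 8 h.

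In the control lines dex called no gene of the group at either time, and 0% of all probe sets were called, with limma and 2 arrays a group. At an unadjusted p under 0.05 the count over the 32 genes was 0 at 4 h and 0 at 8 h, against 2.38% and 2.55% of all probe sets. The median log2 change was -0.05 at 4 h, against 0.004 over all probe sets, with 7 of 32 above 0, against 50.8%. At 8 h it was 0.09, against 0.03 over all probe sets, with 28 of 32 above 0, against 55.3%. Of the 32 genes, 28 were above 0 at 8 h in control line 1 and 16 in control line 2. The shares of all probe sets above 0 in these lines were 49.3% and 57.6%.

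Set against the control response, RFC1 was the only gene of the group called higher at 8 h, where 0.569% of all probe sets were. The RFC1 response was larger in the CRL1 lines by 1.18 ± 0.22 (adjusted p = 0.0191). With line as a block MCM5 was called as well, at 1.65 (adjusted p = 0.109 without the block and 0.00584 with it), where 1.51% of all probe sets were called higher. RFC4 differed by 1.27 (adjusted p = 0.395), RPA14 by 0.74 (adjusted p = 0.371) and ORC3 by 0.73 (adjusted p = 0.522). The median over the 32 genes was 0.24, against -0.08 over all probe sets, and 24 were above 0, against 42.0% of all probe sets. Before adjustment, 4 were higher and none lower at p under 0.05, against 4.63% and 5.11% of all probe sets. Without CRL1 line 2 the median over the 32 genes was 0.01, with 17 of 32 above 0, against 43.2% of all probe sets. It was 0.40 without CRL1 line 1 and 0.33 without CRL1 line 3. Without control line 1 the median was 0.37, and without control line 2 it was 0.12. The RFC1 call was lost when any 1 of the 5 lines was left out, with adjusted p between 0.0594 and 0.256. Without CRL1 line 3, MCM5 (adjusted p = 0.0448) and RFC4 (adjusted p = 0.0272) were called in its place. At 4 h no gene was called in this difference, where 0.00914% of all probe sets were, and RFC1 alone had an unadjusted p under 0.05, against 2.48% of all probe sets.

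Without dex no gene of the group was called, either for time or for kind of line. Between 4 h and 8 h of mock treatment the median log2 difference was -0.02, and 0.0122% of all probe sets were called. At an unadjusted p under 0.05 the count over the 32 genes was 0, against 4.84% of all probe sets. Mock-treated CRL1 lines minus mock-treated control lines gave a median of 0.17, against -0.02 over all probe sets. Above 0 were 28 of 32 genes, against 47.5% of all probe sets. No gene was called there, where 0.00305% of all probe sets were. Before adjustment 2 of 32 passed p under 0.05, H2B.11 (0.32) and RPA70B (0.55), against 8.70% of all probe sets, and the adjusted p was 0.573 for both.

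Other genes of the cell cycle were called in both directions in the CRL1 lines at 8 h. Among 28 cyclins and cyclin-dependent kinases, 3 rose (CYCD5-2, CYCD5-1 and CYCA3-2) and CYCD3-2 fell, with a median of -0.08 beside the -0.04 of all probe sets. CYCA3-2, an A-type cyclin, had signals of 118.4, 99.1 and 94.2 after mock and 163.7, 247.4 and 204.1 after dex in CRL1 lines 1, 2 and 3, without overlap. It rose by 0.96 (adjusted p = 0.0325), CYCD5-2 by 0.92 (adjusted p = 0.0128) and CYCD5-1 by 0.53 (adjusted p = 0.0200), while CYCD3-2 had -0.77 (adjusted p = 0.00567). Of 6 S-phase regulators the inhibitors of cyclin-dependent kinases KRP5 (0.64, adjusted p = 0.0349) and KRP6 (-1.20, adjusted p = 0.0293) were called in opposite directions. Of 34 kinesin and cytokinesis genes 3 rose and 2 fell. The line block gave 4 higher and 2 lower for the cyclins and kinases and 4 higher and 4 lower for the kinesins. It also raised the calls over all 32836 probe sets, from 1140 to 1737 higher and from 955 to 1906 lower. None of 3 other replication factors was called: the nucleases FEN1A, FEN1B and EXO1 had 0.08, -0.03 and 0.75. None of 3 chromatin assembly genes or of 7 recombination and repair genes was called.

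Tissue markers gave these values beside the 8 h result. Of 13 listed shoot meristem markers, LOG-like genes among them, none was called and 3 were above 0, with a median of -0.41 in the CRL1 lines. Their summed signal was 2070 to 2514 after mock and 1593 to 2209 after dex. Of the 5 quiescent centre and crown root markers QHB rose and RR2 and SHR1 fell. Of 53 tested root tissue markers, chiefly nutrient transporters and CASP-like genes, 2 rose and 1 fell, with a median of -0.01. Of 11 vascular markers HOX10 rose, with a median of -0.37, and of 10 tested leaf markers none was called, with a median of -0.21. With line as a block more markers were called lower. The counts were 2 for shoot meristem, 3 for quiescent centre and crown root, 1 for vascular and 3 for root tissue markers. Root tissue also had 3 higher. Over all 32836 probe sets the block raised the calls as well, from 955 to 1906 lower and from 1140 to 1737 higher. The part of such marker shifts in the replication genes' values was not tested.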

How the data were processed

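The authors deposited 1 intensity value per probe set and array, a linear MAS5 signal from Affymetrix Expression Console, as the submitters' processing notes name it; versions and the array's genome build are not given in the sources used here. Of 57381 probe sets, 123 control probe sets were left out. Gene names follow the platform annotation, brought up to date by gene number with a RefSeq table, and each gene was read from its probe set with the highest mean signal. Values were log2(signal + 1.7), the offset being the 20th percentile of all signals, which understates changes of dim genes. The test took the 32836 probe sets that exceeded the median signal of the array on 3 or more arrays. It was limma (version 3.58.1, R version 4.3.3) with 8 group means, trended empirical Bayes and 12 residual degrees of freedom. Benjamini-Hochberg adjustment was over all probe sets tested, at 0.05. The fit was also run on simulated data, which held no differences between lines. That run therefore cannot show how the fit behaves where lines respond unequally. Errors beside log2 changes are standard errors. Mock-treated kinds of line were compared with line as a random block (correlation 0.23). Other comparisons took arrays as independent, with line as a fixed block (9 residual degrees of freedom) as the alternative. The labels pair arrays by line: after subtracting group means, arrays correlated at -0.05 to 0.22 within CRL1 lines (18 pairs of arrays) and at -0.20 to 0.12 between them (36 pairs). The number of arrays limits the precision. Lines are the replicates, and whether repeat sowings of a line would vary alike was not measured.

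The genes, lists and tests were chosen with earlier results of these data known. Values by array are given for each gene called in a comparison, with or without the line block, and for the brightest gene of each role. Of other lists up to 4 genes with the smallest p at 8 h were named. Alternatives were other offsets, filters, quantile normalization, only the groups compared, array weights, the line block, averaging a gene's probe sets and each line left out in turn. Python 3.11.15 with pandas 2.3.3 and numpy 2.4.6 made the tables, and matplotlib 3.10.9 the plots.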

Additional observations from a re-analysis of the deposited data

Results flagged for a closer look

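RFC1 was singled out because its response to dexamethasone at 8 h was not the same in CRL1 lines and in controls by a test of the difference itself. The difference was 1.18 on the log2 scale (adjusted p = 0.0191, limma), with changes of 1.19, 1.58 and 1.34 in CRL1 lines 1, 2 and 3 and of 0.34 and 0.04 in control lines 1 and 2.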

How the results depend on the processing

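Of 252 recomputed counts of called genes 239 stayed within 1.5 times the value given above. Most of these counts were 0 in the main fit and stayed 0, so that figure says little about stability. All 126 recomputed medians moved by less than the SD between lines. That SD comes from the same line medians, so this comparison could hardly fail when a line was left out. Without CRL1 line 2 the median difference between the responses at 8 h went from 0.24 to 0.01. In the CRL1 lines at 8 h the 5 genes called higher became 3 with only the groups compared. Without CRL1 lines 1, 2 and 3 in turn the count was 1, 1 and 3. With a line left out, the median over all 32 genes ranged from 0.17 to 0.58. At 4 h array weights gave 1 call, RFC1 (adjusted p = 0.0407), in place of 0. For the difference between the responses at 8 h, the 1 call became 0 with only the groups compared, 0 with array weights, 2 with line as a replicate block and 0 to 2 with a line left out. RFC1 kept its call at 8 h in the CRL1 lines under every alternative run. RFC4 and ORC3 lost theirs with only the groups compared (adjusted p = 0.108 and 0.0848). ORC3 was too dim to be tested under the stricter filter, where the count stayed at 5 because RFC5 entered. RFC5 passed with array weights (adjusted p = 0.0408), the stricter filter (adjusted p = 0.0413), the mean over probe sets (adjusted p = 0.0444) and the block. Beyond the calls of MCM3, MCM5 and RFC5 given above, the block changed no other call among the 32 genes. Sign changes touched only uncalled values near 0. H2B.5 stood at 0.0041 at 4 h with quantile normalization and at -0.0362 at 8 h with array weights, and MCM2 at -0.0601 in the difference at 8 h with array weights. With a line left out, H2B.5 ranged from -0.16 to 0.11 at 4 h, from -0.0926 to 0.13 at 8 h and from -0.16 to 0.0613 in the difference. MCM2 ranged from -0.13 to 0.0769 at 4 h and from -0.17 to 0.48 in the difference at 8 h, MCM3 from -0.31 to 0.0389 and PCNA from -0.13 to 0.25 at 4 h. The cause of these shifts was not tested. Fits with a line left out also hold fewer arrays. With 2 control arrays a group, differences between responses are the least precise values given.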
